A study of Bos taurus with 30 samples.

Results

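The genes described here were NANOS3 and 7 other genes known for their part in germ cells: PRDM1, DND1, DPPA3, KIT, KITLG, DDX4 and DAZL. They were found by matching the Entrez IDs of the count table to the cattle gene symbols, and each of the 8 had a row among the 35092 in the table. NANOS3 was chosen because its counts in the extra-embryonic membranes (EEM) differed between in vitro produced (IVP) and in vivo derived (IVV) embryos, and the other 7 were added for their known roles. The values of the 8 genes in the EEM are therefore given as a description with no p. So are those of NANOS3 in the embryonic disc (ED), since most discs came from the same embryos. The tests below are on the other 7 genes, in the ED and between ED and EEM, and on gene lists. The lists, like the 8 genes, were chosen with earlier results of these data known, which limits what their p-values can show.

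The study compared the methylomes and transcriptomes of day 15 bovine embryos from both procedures in the ED and the EEM. Its aim was to learn how the procedure affects each tissue, and only the RNA counts are used here. IVP embryos came from oocytes of slaughterhouse Holstein ovaries, were fertilized and cultured without serum, and were transferred on day 7 to 2 recipient cows from which they were flushed. IVV embryos were flushed from 2 superovulated and inseminated donor cows, with semen of 1 Holstein bull for both procedures. Procedure, oocyte source and the cow that carried the embryo therefore cannot be told apart, and with 2 cows a procedure the p-values below measure the spread between embryos. The paper also reports that IVP embryos were shorter than IVV embryos. A disc was found in a smaller share of them, and embryos without a disc were discarded. The part of embryo length in the differences below was not tested.

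Poly(A)-selected RNA gave 7 IVP and 9 IVV libraries of the ED and 6 IVP and 8 IVV libraries of the EEM. They came from 17 embryos, 8 IVP and 9 IVV, of which 13 gave both tissues (5 IVP and 8 IVV). Totals ran from 48713218 to 63037371 counts per library. Levels are given as raw counts or as CPM, the share of a library's counts in parts per 1e6, scaled with the trimmed mean of M values (TMM) over the 30 libraries, and 3 counts in a library were taken as the floor that a true 0 can reach. Levels of different genes were not compared, since counts were not divided by transcript length. Embryos are named as in the sample titles.

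The labelled tissues were checked with marker genes. The epiblast factor POU5F1 averaged 29.2 ± 9.00 CPM (SD, n = 7) in the IVP ED and 95.0 ± 63.2 (n = 9) in the IVV ED, against 1.61 ± 0.607 (n = 6) and 1.24 ± 0.614 (n = 8) in the EEM of IVP and IVV embryos. SOX2, a further defining epiblast gene, was listed at 0 in every library of either tissue. The summed level of the 7 trophoblast markers ran from 3120 to 19300 CPM in the ED and from 3680 to 26300 CPM in the EEM, so that trophoblast transcripts were abundant in the libraries labelled ED as well. Fewer cells of a type and less RNA per cell cannot be told apart in such bulk samples. XIST, the RNA that coats the inactive X chromosome, was under 0.6 CPM in all IVP libraries. In the IVV libraries it was between 45.1 and 424 CPM, except in both tissues of embryos VE3 and VE5, which had at most 0.214 CPM. The sex of the embryos is not in the labels.

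Primordial germ cells, the founders of eggs and sperm, are set aside early in mammalian development in answer to BMP and Wnt signals. In mammals PRDM1 turns off the somatic program in them, NANOS3 and DND1 are RNA-binding proteins that keep them alive, KIT on their surface receives the survival and guidance signal KITLG, and DPPA3 is a protein of the egg and of early germ cells. DAZL and the RNA helicase DDX4 come on later, when the cells reach the gonad, and many genes of meiosis and of the piRNA pathway, which silences transposons, follow.

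NANOS3 (Entrez 112447338) was nearly absent from IVP embryos and present in every library of IVV embryos. In the IVP ED it had 5, 0, 3, 5, 3, 4 and 4 counts in embryos IVP10, IVP11, IVP14, IVPF10, IVPF13, IVPF14 and IVPF15. The 9 IVV discs held 26 to 137 counts with a median of 77, lowest in VE24 and highest in VE3. The groups did not overlap: the highest IVP disc was at 0.0926 CPM and the lowest IVV disc at 0.432 CPM. Means were 0.0606 ± 0.0305 CPM (SD, n = 7) in IVP and 1.24 ± 0.573 CPM (n = 9) in IVV, a ratio of means 20.5-fold lower in IVP.

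In the fit across all genes of the ED, the log2 difference of NANOS3 between IVP and IVV was -4.32 (SE 0.50, edgeR). It passed the filter on low counts through the IVV libraries alone, so that it had to differ to be fitted, and no p is given. Of the 15733 genes tested in the ED, 6.34% were differentially expressed (DEG, adjusted p under 0.05), 4.95% lower and 1.40% higher in IVP, with the edgeR quasi-likelihood test and Benjamini-Hochberg adjustment. DPPA3 and DAZL were under the filter, and none of the 5 other genes tested was a DEG there with edgeR, DESeq2 or limma voom, and 1 (DND1) had an unadjusted p under 0.05 with edgeR. A level under that of all IVV discs in all IVP discs was seen in 0.773% of 16679 genes. The log2 difference lay between -4.80 and -4.14 in 10 alternatives of the processing, and between -4.46 and -4.15 when 1 embryo was left out. The ED libraries were not those that led to its choice, but 5 of the 7 IVP and 8 of the 9 IVV discs came from embryos whose membranes did. In the 3 discs whose embryos had no EEM library, the counts were 5 in IVPF10, 4 in IVPF15 and 40 in VE6.

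In the EEM, the contrast for which the gene was chosen, NANOS3 had 0 counts in 4 of the 6 IVP libraries and 1 count in IVPF13 and in IVPF9. The 8 IVV membranes held 60 counts in VE19, 95 in VE24, 49 in VE26, 168 in VE28, 72 in VE29, 30 in VE3, 160 in VE4 and 143 in VE5. With the IVP libraries at the floor of 3 counts per library, this was at least 33.0-fold lower in IVP than the IVV mean of 1.94 ± 1.16 CPM (SD, n = 8). The ranges did not overlap, as for 0.384% of all genes in that direction, from which nothing is read here because the gene was picked on this contrast.

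**Figure D1:**
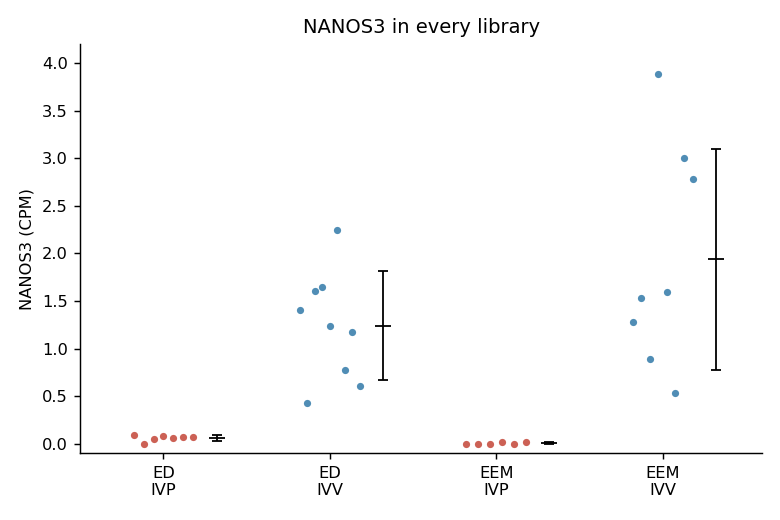
NANOS3 in CPM (vertical axis, linear) in every library of the ED and EEM of IVP (red) and IVV (blue) embryos. Points are libraries, and the black bar beside each group is the mean ± SD (n = 7, 9, 6 and 8 from left to right). All IVP libraries lie under 0.1 CPM and all IVV libraries at or above 0.432 CPM.

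Within IVV embryos NANOS3 was not restricted to the tissue that holds the epiblast. It was higher in the EEM than in the ED in 5 of the 8 embryos with both tissues, and the ED minus EEM difference averaged -0.44 ± 1.36 on the log2 CPM scale (SD, n = 8), from -1.91 to 2.00. VE28 and VE3 differed in opposite directions: VE28 held 1.65 CPM in the disc and 3.89 in the membranes, and VE3 2.25 in the disc and 0.537 in the membranes. The epiblast genes did not share this spread, since POU5F1, NANOG and SOX2 summed to at most 2.24 CPM in the IVV EEM against a median of 89.3 CPM in the IVV ED. TBXT, which marks the primitive streak, had 0 counts in every EEM library.

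NANOS3 in the discs was also set against the level of TBXT, since streak genes were lower in the IVP ED. All 5 of the streak and mesoderm markers tested (TBXT, MIXL1, MESP1, EOMES and TBX6) were DEG lower in the IVP discs. TBXT, at 0 to 88 counts in IVP and 10 to 2136 in IVV discs, would have passed the filter on the IVV discs alone, and nothing is read from its call. The IVV disc with the fewest TBXT counts, VE4, had 10 counts of TBXT (0.175 CPM) and 44 counts of NANOS3 (0.772 CPM). The IVP disc with the most, IVP14, had 88 counts of TBXT (1.40 CPM) and 3 counts of NANOS3 (0.0478 CPM). The part of the streak genes in the NANOS3 difference was not tested. With regard to XIST, VE3 and VE5, the IVV embryos without it, held 137 and 77 counts of NANOS3 in the ED and 30 and 143 in the EEM. VE3 was thus the highest IVV disc and the lowest IVV membrane, and both embryos were above every IVP library. With XIST as a covariate the ED difference was -4.80, and among the discs whose titles end in the letter C, 5 IVP and 7 IVV, it was -4.14 (both edgeR).

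The counting did not use the strand, so reads of overlapping genes cannot be told apart from those of NANOS3. By the RefSeq annotation of ARS-UCD2.0, the loci of the microRNAs MIR181C and MIR181D lie within its span, and both had 0 counts in every library. Of the neighbouring protein-coding genes, CC2D1A and BRME1 had values and LOC132345691 was not analysed here. CC2D1A, which codes for a DNA-binding and signaling protein, ran from 316 to 1459 counts. BRME1, a gene of meiotic recombination, ran from 13 to 85 counts in the IVP ED, 36 to 120 in the IVV ED, 4 to 39 in the IVP EEM and 12 to 50 in the IVV EEM. Neither passed the threshold between IVP and IVV: in the ED the log2 difference was -0.63 (SE 0.35, adjusted p = 0.368) for BRME1 and -0.30 (SE 0.20, adjusted p = 0.5) for CC2D1A, and in the EEM -0.96 (SE 0.47, adjusted p = 0.369) and -0.20 (SE 0.22, adjusted p = 0.863). Both were added to the fits after their values were seen.

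DND1 (525516), the other RNA-binding protein of the group, was more abundant in the disc than in the membranes. In IVV embryos it averaged 7.14 ± 4.58 CPM (SD, n = 9) in the ED and 2.40 ± 0.926 (n = 8) in the EEM. The disc was higher in 8 of 8 IVV embryos, from 0.26 to 3.36 on the log2 scale, and the fitted difference was 1.53 (SE 0.32, adjusted p = 0.00148, edgeR with embryo as a block). In IVP embryos the means were 4.05 ± 1.27 CPM (n = 7) and 2.7 ± 1.14 (n = 6), the disc was higher in 4 of 5 embryos, and the fitted difference of 0.89 (SE 0.41, adjusted p = 0.269) did not pass the threshold. IVP10 was the exception, with 2.69 CPM in the disc and 4.2 in the membranes. The interaction, which tests whether the ED minus EEM difference itself differed between procedures, was -0.65 (SE 0.52, adjusted p = 0.793).

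Between the procedures DND1 in the discs ranged from 2.69 to 6.04 CPM in IVP and from 2.41 to 17.0 in IVV. The IVP discs all lay inside the IVV range. The fitted log2 difference was -0.85 (SE 0.34, unadjusted p = 0.0208, adjusted p = 0.162, edgeR), and without VE5, the disc at 17.0 CPM with 1105 counts, it was -0.42 (adjusted p = 0.554). With XIST as a covariate it was -1.71 and passed the threshold (adjusted p = 0.0242). In the EEM the ranges overlapped, 1.40 to 4.2 CPM in IVP and 0.947 to 3.57 in IVV.

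PRDM1 (538384), the transcriptional repressor at the top of the germ cell program, was higher in the disc in each of the 13 embryos with both tissues. In IVV embryos it averaged 8.35 ± 3.38 CPM (SD, n = 9) in the ED and 2.64 ± 1.24 (n = 8) in the EEM, with a log2 difference of 1.57 (SE 0.23, adjusted p = 3.61e-05). In IVP embryos the means were 8.19 ± 4.44 (n = 7) and 2.90 ± 1.11 (n = 6), with a log2 difference of 1.34 (SE 0.28, adjusted p = 0.00673). The per-embryo differences ran from 0.43 to 2.7 in IVV and from 0.99 to 1.72 in IVP, and the interaction was -0.23 (SE 0.36, adjusted p = 0.930, all edgeR).

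For PRDM1 the discs overlapped nearly in full, from 3.28 CPM in IVP10 to 15.9 in IVP14 among the IVP and from 3.53 in VE4 to 14.4 in VE6 among the IVV. The IVP minus IVV log2 difference in the ED was -0.08 (SE 0.33, adjusted p = 0.947, edgeR), and it took either sign between alternatives. VE4, the IVV disc with the fewest TBXT counts, also had the least PRDM1 of the IVV discs. In the EEM, PRDM1 lay between 1.55 and 4.78 CPM in IVP and between 1.15 and 4.74 in IVV.

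DPPA3 (616433) was near the floor in both tissues and did not pass the filter on low counts. The IVP discs held 4, 12, 0, 12, 13, 8 and 1 counts in the order of embryos given for NANOS3, and the IVV discs 0 to 8 counts with 3 of the 9 at 0. The ranges overlapped, although 4 of 7 IVP discs were above all IVV discs in CPM. The mean log2 difference was 0.82 (exact two-sided permutation test, p = 0.158, n = 7 and 9), and without IVP14, an IVP disc at 0, p was 0.040 by the same exact test. In the EEM only IVP11 and IVPF14 passed 6 counts, with 10 and 14, and their discs had 12 and 8. In IVV embryos the ED minus EEM difference was 0.42 (exact paired permutation test, p = 0.242, n = 8).

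**Figure D2:**
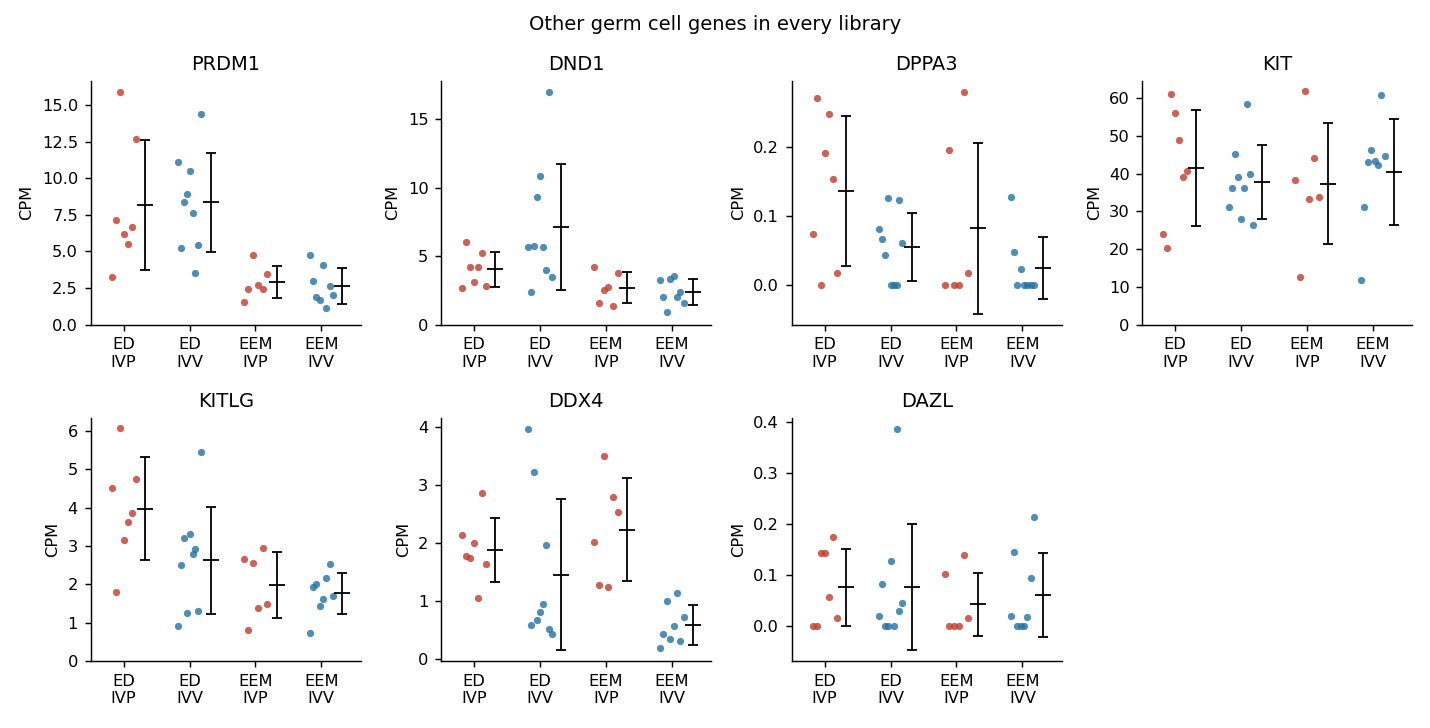
The other 7 genes in CPM (vertical axes, linear, each on its own scale) in every library of the ED and EEM of IVP (red) and IVV (blue) embryos. Points are libraries and black bars the mean ± SD (n = 7, 9, 6 and 8 from left to right). PRDM1 in both procedures and DND1 in IVV embryos average higher in the ED than in the EEM, KIT overlaps in all groups, DDX4 does not overlap between IVP and IVV in the EEM, and DPPA3 and DAZL stay under 0.4 CPM.

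KIT (280832), the receptor tyrosine kinase, had overlapping ranges in the 4 groups. It averaged 41.4 ± 15.4 CPM (SD, n = 7) in the IVP ED, 37.8 ± 9.78 (n = 9) in the IVV ED, 37.4 ± 16.1 (n = 6) in the IVP EEM and 40.4 ± 14.1 (n = 8) in the IVV EEM. In the ED the IVP minus IVV log2 difference was 0.00 (SE 0.21, adjusted p = 0.996). The disc was higher than the membranes in 3 of 8 IVV and 2 of 5 IVP embryos, with fitted differences of 0.04 (SE 0.18, adjusted p = 0.890) and 0.04 (SE 0.23, adjusted p = 0.957, edgeR). The spread within a group was wider than any of these differences, with 20.2 CPM in IVP11 and 61.2 in IVP14 among the IVP discs. The same 2 embryos were lowest and highest in the IVP EEM, at 12.5 and 62.0 CPM.

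KITLG (281885), the ligand of KIT, was higher in the disc than in the membranes of IVP embryos. It averaged 3.97 ± 1.34 CPM (SD, n = 7) in the IVP ED and 1.98 ± 0.853 (n = 6) in the IVP EEM, the disc was higher in 5 of 5 embryos, and the log2 difference was 0.94 (SE 0.24, adjusted p = 0.0268, edgeR with embryo as a block). Without the block it was 0.90 with an adjusted p of 0.392 (edgeR), and it lost the threshold without IVP11 (adjusted p = 0.0599), IVP14 (0.126) or IVPF13 (0.122). In IVV embryos the means were 2.63 ± 1.39 (n = 9) and 1.77 ± 0.535 CPM (n = 8), the disc was higher in 6 of 8 embryos, and the log2 difference was 0.30 (SE 0.19, adjusted p = 0.276). The interaction was 0.64 (SE 0.31, unadjusted p = 0.0535, adjusted p = 0.497), so a difference between procedures in this tissue effect did not pass the test.

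In the discs, KITLG ranged from 1.81 to 6.07 CPM in IVP and from 0.908 to 5.45 in IVV. The ranges overlapped with 1 IVP disc, IVP14, above all IVV discs, and the log2 difference was 0.49 (SE 0.29, adjusted p = 0.415, edgeR). IVP11 was the IVP library with the least KITLG in the disc and in the membranes (1.81 and 0.825 CPM), as it was for KIT. VE19 was lowest for KITLG among the IVV libraries of both tissues (0.908 and 0.748 CPM).

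DDX4 (493725), the helicase of later germ cells, was detected in every library. In the discs it averaged 1.89 ± 0.554 CPM (SD, n = 7) in IVP and 1.46 ± 1.31 (n = 9) in IVV. The IVV discs were uneven, at 3.97 CPM in VE19, 3.22 in VE26 and 1.96 in VE4, and at 0.426 to 0.953 in the other 6, whereas the 7 IVP discs ran from 1.05 to 2.87. The log2 difference in the ED was 0.46 (SE 0.44, adjusted p = 0.676, edgeR). It was 0.88 without VE26 and 1.28 with XIST as a covariate (adjusted p = 0.28 and 0.547, edgeR), and it passed the threshold in no alternative run.

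In the EEM, DDX4 was 2.02 CPM in IVP10, 1.28 in IVP11, 3.50 in IVP14, 1.24 in IVPF13, 2.80 in IVPF14 and 2.53 in IVPF9. The 8 IVV membranes ran from 0.192 CPM in VE19 to 1.13 in VE3, with a mean of 0.585 ± 0.339 (SD). All IVP libraries were above all IVV libraries, and the ratio of means was 3.81-fold higher in IVP. The fitted log2 difference was 1.86 (SE 0.33). A level above that of all IVV membranes in all IVP membranes was seen in 0.552% of genes. With XIST as a covariate the difference was 1.51. VE3 and VE5, the IVV embryos without XIST, had 1.13 and 0.720 CPM of DDX4 in the EEM, the highest and the third highest of the IVV values and both under the lowest IVP value of 1.24. Since this contrast led to the choice of NANOS3, these values are a description.

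Within IVV embryos the disc had more DDX4 than the membranes in 6 of 8, with a log2 difference of 1.16 (SE 0.41, adjusted p = 0.0502, edgeR with embryo as a block), just short of the threshold, and it passed in all 6 alternatives of the processing (adjusted p = 0.0130 to 0.0464), including the fit with no replicate block (1.42, adjusted p = 0.0173). When 1 embryo was left out it passed in 3 of 13 fits, and it was 0.77 without VE19 (adjusted p = 0.120) and 0.93 without VE4 (adjusted p = 0.135, edgeR). VE19 differed most between its tissues, with 3.97 CPM in the disc and 0.192 in the membranes. In IVP embryos the log2 difference was -0.17 (SE 0.47, adjusted p = 0.902). The interaction was -1.33 (SE 0.62, unadjusted p = 0.0464, adjusted p = 0.472).

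DAZL (530116), an RNA-binding protein of later germ cells, was near the floor and did not pass the filter. The IVP discs held 0 to 9 counts and the IVV discs 0 to 22, with VE4 highest. In the EEM it had 0 to 7 counts in IVP and 0 to 11 in IVV, with VE5 highest. The log2 difference between the discs was 0.29 (exact two-sided permutation test, p = 0.626, n = 7 and 9) and the ED minus EEM difference in IVV embryos was -0.07 (exact paired permutation test, p = 0.906, n = 8).

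**Figure D3:**
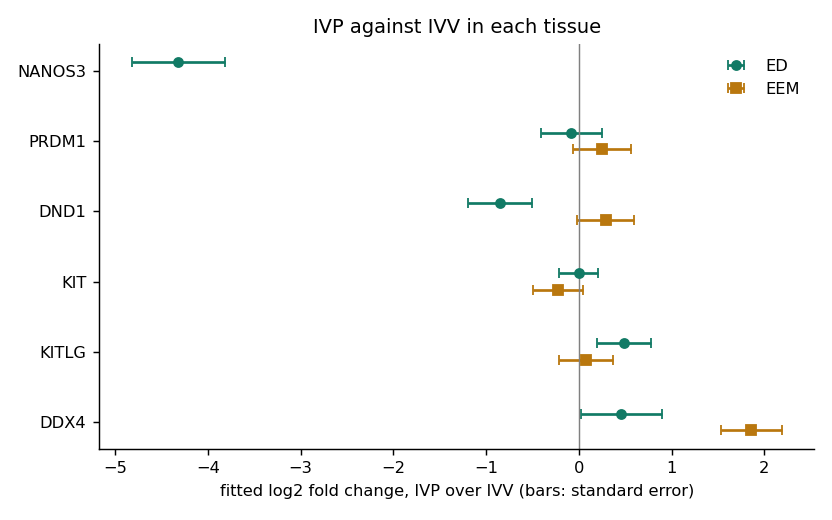
Fitted log2 fold change of IVP over IVV (horizontal axis, with its standard error as bars) for the 6 genes that passed the filter, in the ED (circles) and the EEM (squares). NANOS3 stands at -4.32 in the ED and its EEM value is left out because the IVP membranes were at the floor, DDX4 stands at 1.86 in the EEM, and the other values lie between -0.85 and 0.49.

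Counted over the comparisons, PRDM1 and DND1 were the DEG between ED and EEM in IVV embryos among the 7 genes other than NANOS3, where 22.1% of 16784 genes were DEG, 15.6% higher and 6.55% lower in the ED. In IVP embryos PRDM1 and KITLG were DEG, where 4.83% of genes were, 4.18% higher and 0.649% lower. None of the 7 passed the interaction with edgeR, where 1.02% of genes did. The count at an unadjusted p under 0.05 was 1 (DDX4), and DESeq2 and limma voom called 0.

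**Figure D4:**
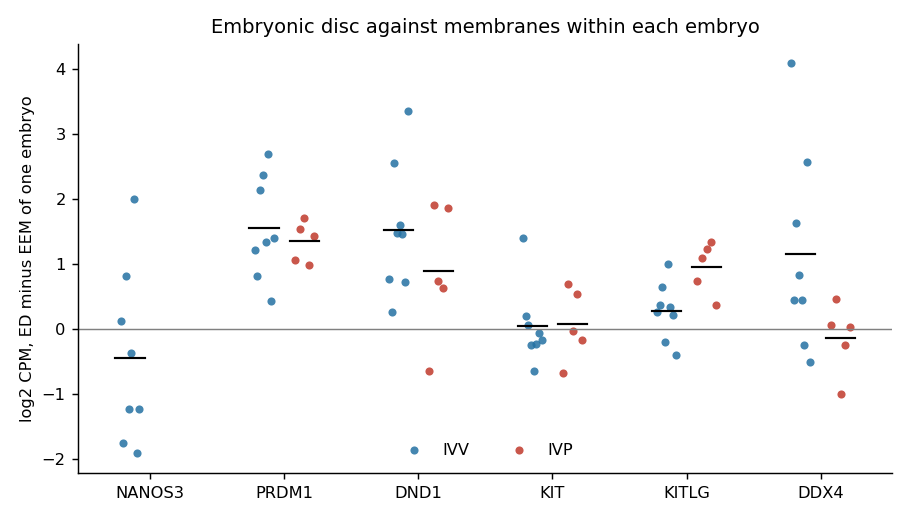
Difference of log2 CPM between ED and EEM of one embryo (vertical axis) for the 6 genes that passed the filter, in 8 IVV (blue) and 5 IVP (red) embryos. Points are embryos and black lines group means, and NANOS3 in IVP embryos is left out because the membranes were at the floor. PRDM1 is above 0 in all 13 embryos, DND1 in 12, and NANOS3 in 3 of 8 IVV embryos.

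Some of the genes that signal germ cell fate were lower in the IVP disc. The list held 14 tested specification signals, the BMP and Wnt ligands, receptors and targets upstream of PRDM1. Of these, 5 were DEG, all lower in IVP (ID1, BMP4, WNT3, TBXT and EOMES), and 9 did not pass. The calls of TBXT, as above, and of WNT3 are limited by the filter, and nothing is read from them. BMP4, the ligand that starts germ cell specification in the mouse, averaged 9.38 ± 2.47 CPM (SD, n = 7) in IVP and 30.9 ± 14.3 (n = 9) in IVV discs, a log2 difference of -1.74 (SE 0.27, adjusted p = 0.000241). ID1, a direct target of BMP signaling, averaged 7.56 ± 4.33 and 46.1 ± 15.7 CPM, a log2 difference of -2.82 (SE 0.34, adjusted p = 1.72e-05). WNT3, which primes epiblast cells for BMP4, averaged 0.404 ± 0.187 and 3.26 ± 2.28 CPM, with a difference of -3.06 (SE 0.47, all edgeR). WNT3 had 9 to 45 counts in IVP and 51 to 521 in IVV discs. Its lowest IVP disc was under the minimum of the filter, so it passed through the IVV discs and no p is given. The median log2 difference of the list was -0.41, against -0.01 over all genes. In the EEM, where 3.81% of 14718 genes were DEG (1.52% lower and 2.29% higher in IVP), 2 of 12 were, BMP4 and ID1, both lower in IVP. With XIST as a covariate BMP4 lost its call in the ED, and both lost it in the EEM. In IVV embryos 7 of 14 were DEG between the tissues, all of them higher in the ED, and 4 without the embryo block. Of all genes, 22.1% were DEG there, 15.6% higher in the ED. TBXT, at 0 counts in every EEM library, and EOMES, at 0 to 4 in the IVV EEM, passed the filter through the discs. Both are among the 7 and the 4, and nothing is read from their calls between tissues. BMP4 did not overlap between the discs, at 5.67 to 13 CPM in IVP and 15.9 to 62.0 in IVV, as for 0.773% of all genes in that direction. The 5 markers of extra-embryonic mesoderm summed to 7.88 to 54.6 CPM in the IVP and 15.3 to 138 in the IVV discs, with none of them at the floor in either group. Of the 4 tested in the ED, 2 were DEG and 2 did not pass. The DEG were KDR, a receptor of vascular progenitors, at 0.412 CPM in IVP and 13.5 in IVV discs, and FOXF1, a mesoderm transcription factor, at 0.292 and 3.85. Both had 0 to 40 counts in the IVP discs, which alone would not have passed the filter, so nothing is read from their calls. Their part in the differences of the signals was not tested.

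Of 12 tested germ cell fate and pluripotency factors, PRDM14 and POU5F1 were the DEG of the ED, both lower in IVP, with a list median of -0.19. PRDM14, which works beside PRDM1 in germ cell fate, averaged 1.38 ± 0.471 CPM (SD, n = 7) in IVP and 4.95 ± 3.41 (n = 9) in IVV discs, a log2 difference of -1.95 (SE 0.40, adjusted p = 0.00411). NANOG and KLF4 came next by p at -1.34 (SE 0.41, adjusted p = 0.0517) and -1.17 (SE 0.39, adjusted p = 0.0737, edgeR) and did not pass. NANOG did pass with XIST as a covariate, with no filter, with 0 surrogate variables and with DESeq2, and KLF4 with no filter and with DESeq2. In the EEM KLF4 was lower and LIN28B higher in IVP, of 10 tested, and LIN28B lost its call with XIST as a covariate or with 0 surrogate variables. In IVV embryos 6 of 12 were higher in the ED (POU5F1, NANOG, PRDM14, SALL4, LIN28A and LIN28B) and 4 lower (TFAP2C, TFAP2A, SOX15 and TFCP2L1). Without the embryo block the 4 lower calls and that of LIN28A were lost. Of all genes, 22.1% were DEG between these tissues, 15.6% higher and 6.55% lower in the ED. NANOG, at 0 to 10 counts in the IVV EEM, and PRDM14, at 0 to 5, passed the filter through the discs. Nothing is read from their calls between tissues.

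The partners through which NANOS3, DND1, PRDM1, DPPA3 and KIT act did not pass the test between procedures in either tissue with edgeR. None of 14 partners of NANOS and DND1 proteins, mostly subunits of the CCR4-NOT deadenylase and PUM proteins, was a DEG in the ED, with CNOT7 (0.35, SE 0.19, adjusted p = 0.358) and CNOT6L (-0.33, SE 0.19, adjusted p = 0.398) first by p. None of 12 partners of PRDM1 and DPPA3 was, with the histone deacetylase HDAC2 first (-0.52, SE 0.25, adjusted p = 0.280). None of 12 KIT signaling genes was, with the adaptor SH2B3 (0.65, SE 0.25, adjusted p = 0.148) and the ubiquitin ligase CBL (0.46, SE 0.20, adjusted p = 0.197) first. The ED medians of these lists were 0.06, 0.04 and 0.19. At an unadjusted p under 0.05 the count over the 3 lists was 2 in the ED (SH2B3 and CBL) and 2 in the EEM (CPEB1 and STAT3), and DESeq2 called 0 in either tissue.

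Among 10 migration and surface proteins in the ED, IFITM1 and CXCL12 were lower and PDPN higher in IVP, with a list median of 0.05. IFITM1, a membrane protein of nascent germ cells in the mouse, averaged 0.688 ± 0.419 CPM (SD, n = 7) in IVP and 8.37 ± 3.84 (n = 9) in IVV discs, a difference of -3.63 (SE 0.52). It had 0 to 60 counts in IVP and 182 to 994 in IVV discs. The IVP discs alone would not have passed the filter, so no p is given for IFITM1 and nothing is read from its call. CXCL12, the chemokine that guides migrating germ cells, averaged 0.959 ± 0.464 and 2.72 ± 2.82 CPM, a difference of -1.59 (SE 0.48, adjusted p = 0.0490). PDPN, a surface glycoprotein, averaged 294 ± 157 and 101 ± 45.6 CPM, a difference of 1.42 (SE 0.28, adjusted p = 0.00329, all edgeR), and it lost its call with XIST as a covariate. None of 9 passed the test in the EEM with edgeR or DESeq2, where 2 had an unadjusted p under 0.05 (EPCAM and PDPN). In IVV embryos 6 of 10 were DEG higher in the ED than in the EEM, 4 without the embryo block, where 15.6% of all genes were higher with the block. CXCL12 is among the 6 and the 4. At 0 to 12 counts in the IVV EEM it passed the filter through the discs, and nothing is read from that call.

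The later germ cell genes, which act in the piRNA pathway, in meiosis and in the oocyte, went in both directions in the disc and were higher in the IVP membranes where they were DEG. Of 37 found, 26 were tested in the ED. NOBOX, PIWIL2, SOHLH2, SYCP2 and TDRD9 were higher and TDRKH, SOHLH1 and RNF17 lower in IVP, with a list median of 0.10. RNF17, at 1 to 6 counts in IVP and 5 to 25 in IVV discs, passed the filter on low counts through the IVV discs alone, and nothing is read from its call. In the EEM 5 of 22 were DEG, all higher in IVP (TDRD9, PIWIL2, NOBOX, SYCP2 and SYCP1), with a list median of 0.57 against 0.00 over all genes. SYCP1, at 16 to 36 counts in IVP and 2 to 19 in IVV membranes, and NOBOX, at 32 to 169 and 3 to 93 counts, passed the filter through the IVP libraries, and nothing is read from their calls in the EEM. Without the surrogate variable NOBOX and SYCP1 lost their calls in the EEM.

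TDRD9, a helicase of the piRNA pathway, had the smallest p of these in the ED. It ran from 40.7 to 87.0 CPM in the IVP discs and from 0.868 to 19.6 in the IVV discs, with no overlap, as for 0.138% of all genes in that direction, and the log2 difference was 2.97 (SE 0.46, adjusted p = 0.000265). In the EEM it ran from 39.3 to 65.9 CPM in IVP and from 1.5 to 14 in IVV, a difference of 2.75 (SE 0.39, adjusted p = 0.000105, edgeR). PIWIL2, which binds piRNAs, averaged 6.38 ± 1.89 CPM (SD, n = 6) in the IVP EEM and 0.940 ± 0.587 (n = 8) in the IVV EEM, a difference of 2.86 (SE 0.36, adjusted p = 2.51e-05, edgeR). SYCP2, of the synaptonemal complex, averaged 2.38 ± 0.799 and 0.804 ± 0.420 CPM, and NOBOX, an oocyte homeobox gene, 1.86 ± 0.881 and 0.544 ± 0.632.

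SOHLH2 and SOHLH1, partner transcription factors of the early germ line, went apart in the ED. SOHLH2 averaged 19.1 ± 5.56 CPM (SD, n = 7) in IVP and 8.26 ± 3.20 (n = 9) in IVV discs, a difference of 1.17 (SE 0.25, adjusted p = 0.00481), and SOHLH1 0.479 ± 0.311 and 1.09 ± 0.354, a difference of -1.22 (SE 0.34, adjusted p = 0.0338, edgeR), a call lost without the surrogate variable. SOHLH1 had 11 to 49 counts in the IVP discs, near the minimum of the filter. With XIST as a covariate 2 of the 8 DEG in the ED passed (TDRKH and SYCP2) and 2 of the 5 in the EEM (NOBOX and PIWIL2). VE3 and VE5, the IVV embryos without XIST, had 19.6 and 12.5 CPM of TDRD9 in the ED and 14 and 10.6 in the EEM, under the lowest IVP values of 40.7 and 39.3. Genes named beyond those with the 4 smallest p of each list were chosen after their values were seen.

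**Figure D5:**
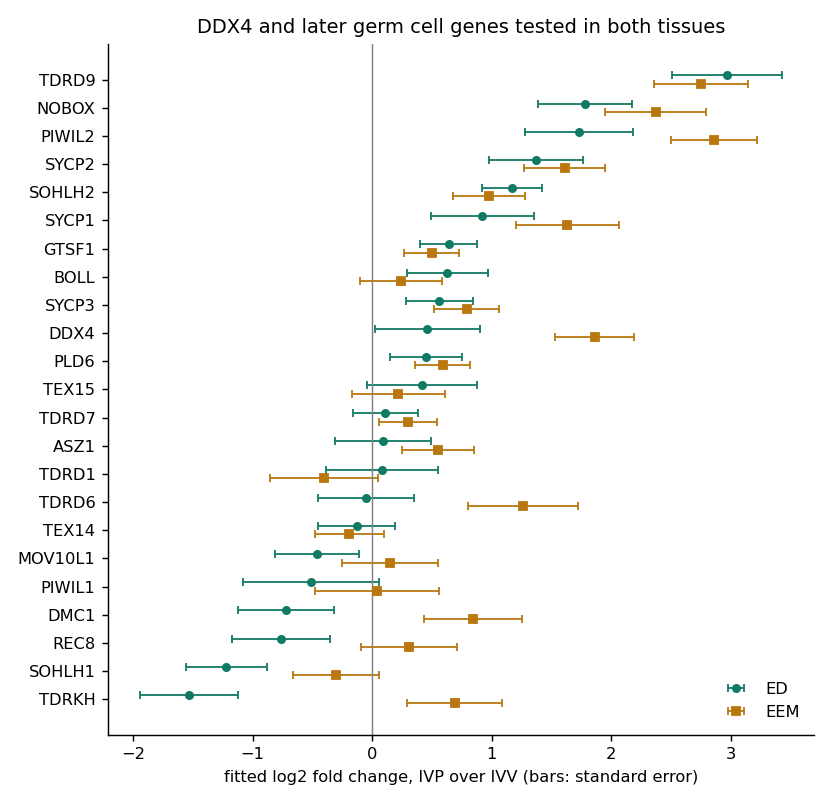
Fitted log2 fold change of IVP over IVV (horizontal axis, with its standard error as bars) in the ED (circles) and the EEM (squares) for DDX4 and the 22 later germ cell genes tested in both tissues, ordered by the ED value. TDRD9, NOBOX, PIWIL2 and SYCP2 are right of 0 in both tissues, and TDRKH is at -1.53 in the ED.

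Over all 30 libraries the genes whose log2 CPM followed NANOS3 most closely, among 16679, were RGS2 (Spearman's rho 0.847), H2BC21 (0.833), RGS16 (0.832), GJB5 (0.831) and RASL11B (0.819). These points share the tissue and the procedure, so the values are a description of which genes differ between the same libraries. By Pearson's r, 3 of these 5 stayed among the first 5. GJB5, a gap junction protein of epithelia and trophoblast, had a pattern near that of NANOS3, at 0.0615 CPM in the IVP ED, 0.523 in the IVV ED, 0.00625 in the IVP EEM and 0.875 in the IVV EEM. RGS2 and RGS16 code for regulators of G protein signaling, and RGS2 averaged 1.07, 2.81, 0.654 and 3.29 CPM in the same order. H2BC21 is a histone gene with near-identical copies, so its counts are uncertain. For the other members with a value, rho with NANOS3 was 0.036 for PRDM1, 0.165 for DND1, 0.097 for KIT, -0.222 for KITLG and -0.577 for DDX4.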

How the data were processed

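RNA of the ED and EEM of day 15 bovine embryos was poly(A)-selected and sequenced as pairs without strand information. The authors filtered reads with SOAPnuke, checked them with FastQC 0.11.9 and Trimmomatic, aligned them with STAR 2.7.0b to ARS-UCD1.3 and ran featureCounts of Subread 2.0.3, and deposited raw counts for 35092 Entrez IDs in 30 libraries. RefSeq names of ARS-UCD2.0 matched 31630 IDs, which held 99.51% of the counts; 3462 IDs had no name, and positions were used only for neighbours. The members and gene lists were chosen with earlier results of these data known. IFITM3 and STK31 were not found by symbol. Sequences are not used here.

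Counts were analysed with edgeR 4.0.16 (R 4.3.3): TMM, filterByExpr (minimum of 10 counts) and, over all genes, quasi-likelihood F tests, with p-values adjusted after Benjamini and Hochberg and called at 0.05. IVP and IVV were compared within a tissue with 1 surrogate variable (svaseq, sva 3.50.0), since the study controlled for morphology, which the labels do not give. The tissue effect within each procedure and its interaction with procedure came from 1 fit of the 26 libraries of 13 embryos, blocked by embryo. The pairing comes from the embryo names in the titles; the deviations of both tissues of an embryo correlated at 0.266 to 0.639, and at -0.19 in IVPF13. DPPA3 and DAZL, under the filter, were compared with exact permutation tests on log2 CPM with a prior count of 2. SE is the log2 difference divided by the square root of F. The scripts were tested on simulated data.

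No libraries were identical. Floors cover counting error only. All 8 genes, the 4 smallest p in the ED of each of 7 lists, and the 5 genes most like NANOS3 are named by rule. Alternatives were RLE size factors, DESeq2 1.42.0, limma 3.58.1 (voom), no filter, halved counts, other numbers of surrogate variables, the letter that ends the titles, XIST as a covariate, no block, and leaving out each embryo.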

Additional observations from a re-analysis of the deposited data

Results flagged for a closer look

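In 31 groups of 4 to 10 samples, each a gene in a tissue and procedure, the gap of the farthest sample to its neighbour, as a share of the range on the log2 CPM scale, was compared with Dixon's critical value, which chance passes in about 1 of 20 groups. KIT in the EEM of VE19 was far below the other IVV embryos (11.8 CPM, gap 0.593 of the range in log2 CPM, critical value 0.526). KITLG in the same library was also far below them (0.748 CPM, gap 0.535 of the range in log2 CPM). The same library had the lowest DDX4 of the IVV membranes (0.192 CPM) and the lowest PIWIL2 (0.0641 CPM), and the highest NOBOX (1.99 CPM), while its 60 counts of NANOS3 lay inside the range of the group. Without VE19 the KIT difference between ED and EEM in IVV embryos was -0.15, against 0.04 with it, and neither passed the threshold. The cause was not tested.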

How the results depend on the processing

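The calls of NANOS3 in the ED and of any member in the EEM are descriptions, since NANOS3 was chosen on the EEM contrast. In the ED the fits counted 1 of the 8 genes, NANOS3, whose call is not read because of the filter. With XIST as a covariate they counted 2, and DND1 was the other. In the EEM the count over the other 7 was 0 with XIST as a covariate, where DDX4 lost its call, and 1 otherwise. XIST was near 0 in every IVP library, so that covariate and procedure are nearly the same. ED against EEM in IVP embryos gave 1 gene with no replicate block, where KITLG lost its call, and 1 to 2 without 1 embryo. In IVV embryos the count was 3 in the 6 alternatives, including that with no replicate block, and 2 to 3 without 1 embryo. Without the block DDX4 passed there (1.42, adjusted p = 0.0173 with edgeR). The block changed no other call of a member. Of DPPA3 and DAZL, 0 to 1 passed the exact test in the ED without 1 embryo. Differences near 0 changed sign. PRDM1 in the ED was 0.07 with 2 surrogate variables, 0.36 with XIST and 0.16 in titles ending in C, and -0.28 to 0.07 without 1 embryo. KIT in the ED was 0.04 with RLE, 0.03 with DESeq2, 0.02 with no filter, 0.07 with halved counts, 0.10 with 0 surrogate variables and 0.06 with XIST or in titles ending in C, and -0.10 to 0.22 without 1 embryo. In the EEM, KIT was 0.06 with XIST, KITLG -0.04 with 2 surrogate variables and -0.10 to 0.20 without 1 embryo, and PRDM1 -0.02 to 0.38. For ED against EEM, KIT was -0.04 in IVV and 0.00 in IVP embryos with no replicate block, and -0.15 to 0.13 and -0.09 to 0.23 without 1 embryo, and DDX4 in IVP embryos -0.28 to 0.05. DAZL was 0.00 in the ED and 0.02 between tissues on the CPM scale. The cause of these changes was not tested. Even counts were more frequent than odd ones (19289 entries of 2, 15257 of 1), and halving them changed the call of DDX4 between tissues in IVV embryos only. Low counts limit DPPA3, DAZL and NANOS3 in IVP.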
